A study of Homo sapiens with 9 samples.

Results

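The 7 long non-coding RNA genes followed here across 3 treatments of THP-1 cells are 5 from which known microRNAs are cut (MIR155HG, MIR3142HG, MIR22HG, MIR17HG and MIR4435-2HG) and 2 that encode abundant RNAs of the nucleus (NEAT1 and MALAT1). They were chosen by gene symbol, 7 of the 34643 genes in the deposited expression table, and all 7 reached the level needed to enter the test. THP-1 is a human monocytic leukaemia line that the phorbol ester PMA turns towards a macrophage. All groups were primed with 500 nM PMA for 4 h, followed by 24 h of rest. The LPS+PD group (replicates 7 to 9) then received LPS at 1 µg/mL with PD at 10 µM, the LPS group (replicates 4 to 6) received the same LPS alone, and the control group (replicates 1 to 3) received neither. LPS is a cell wall component of Gram-negative bacteria, and the title of the series names PD as panaxadiol, a triterpenoid from ginseng. No group had PD without LPS, and neither the length of the exposure nor a vehicle is given in the sources used here. All libraries are of a single cell line, labelled wildtype, and nothing in the labels says whether replicates were separate cultures, so each p-value reflects only how far these libraries scatter, which could be technical.

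A microRNA host gene is transcribed into a long primary RNA that holds 1 or more hairpins. The nuclease DROSHA cuts the hairpin out, DICER1 trims it, and the mature strand guides an Argonaute protein to messenger RNAs that pair with its seed, the bases near its 5′ end. In macrophages miR-155 and miR-146a are the best known microRNAs induced through Toll-like receptors and NF-κB. MiR-155 represses brakes of inflammatory signalling such as SOCS1 and INPP5D, and miR-146a represses the adaptors IRAK1 and TRAF6. NEAT1 is the scaffold on which nuclear bodies called paraspeckles assemble, and MALAT1 gathers in nuclear speckles, where splicing factors are stored. The libraries were enriched for poly(A) RNA, so the values below are levels of host RNA and not of mature microRNA. MALAT1 and the long form of NEAT1 end in a stabilising triple helix in place of an ordinary poly(A) tail.

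The mature strands that these genes encode show what each host level could feed, so they are printed here from RefSeq (GRCh38.p14), 5′ to 3′, with the seed (bases 2 to 8) in capitals. Of the 12 strands looked up, 11 were matched, and that of MIR612, which lies in NEAT1, was not.
hsa-miR-155-5p (MIR155HG): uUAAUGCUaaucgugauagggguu
hsa-miR-146a-5p (MIR3142HG): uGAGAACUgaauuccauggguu
hsa-miR-3142 (MIR3142HG): aAGGCCUUucugaaccuucaga
hsa-miR-22-3p (MIR22HG): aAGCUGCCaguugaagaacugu
hsa-miR-17-5p (MIR17HG): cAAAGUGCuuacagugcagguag
hsa-miR-20a-5p (MIR17HG): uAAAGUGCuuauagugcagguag
hsa-miR-18a-5p (MIR17HG): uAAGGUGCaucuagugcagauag
hsa-miR-19a-3p (MIR17HG): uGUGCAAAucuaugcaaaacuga
hsa-miR-19b-3p (MIR17HG): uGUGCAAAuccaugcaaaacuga
hsa-miR-92a-3p (MIR17HG): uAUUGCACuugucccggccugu
hsa-miR-4435 (MIR4435-2HG): aUGGCCAGagcucacacagagg
The strands of miR-17-5p and miR-20a-5p share a seed, and so do those of miR-19a-3p and miR-19b-3p. The other 7 strands each have a seed of their own among those shown.

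The position of each hairpin in its host decides whether the spliced RNA still contains it. In the GENCODE v29 annotation (GRCh38) MIR155 lies in an exon of the only MIR155HG transcript, which spans chr21:25561909-25575168 on the plus strand. MIR3142HG (chr5:160438594-160487426, plus strand) carries MIR146A in an exon of both of its transcripts, and MIR3142 in an intron of both. MIR22 is exonic in all 19 transcripts of MIR22HG (chr17:1711493-1717174, minus strand). The 6 hairpins of the miR-17-92 cluster are exonic in 2 of the 3 transcripts of MIR17HG (chr13:91347820-91354579, plus strand) and intronic in the other. MIR4435-2 is in no exon of MIR4435-2HG (chr2:111036776-111523376, minus strand); 12 of its 25 transcripts span it. NEAT1 (chr11:65422774-65445540, plus strand) and MALAT1 (chr11:65497688-65506516, plus strand) are neighbours on the same chromosome. NEAT1 also holds a hairpin, MIR612, in an exon of 1 of its 8 transcripts.

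The promoters of MIR3142HG and MIR155HG, the hosts of the microRNAs that LPS is best known to induce, are shown next with the motifs of inflammatory transcription factors that they hold. RefSeq promoters of 300 bases (250 before and 50 after the start) were found for 6 of the 7 genes; NEAT1 was not matched. The first is chr5:160468001-160468300 and the second chr21:25561895-25562194, both on the plus strand of GRCh38.p14. These RefSeq starts differ from the GENCODE v29 gene starts, 160438594 for MIR3142HG and 25561909 for MIR155HG. The motifs given below for these 2 windows lie after those GENCODE starts.
MIR3142HG: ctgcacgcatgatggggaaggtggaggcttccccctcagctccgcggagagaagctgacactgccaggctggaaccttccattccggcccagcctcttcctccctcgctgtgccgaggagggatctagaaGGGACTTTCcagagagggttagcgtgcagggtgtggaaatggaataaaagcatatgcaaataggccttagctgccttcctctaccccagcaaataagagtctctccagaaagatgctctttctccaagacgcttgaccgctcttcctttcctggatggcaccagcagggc
MIR155HG: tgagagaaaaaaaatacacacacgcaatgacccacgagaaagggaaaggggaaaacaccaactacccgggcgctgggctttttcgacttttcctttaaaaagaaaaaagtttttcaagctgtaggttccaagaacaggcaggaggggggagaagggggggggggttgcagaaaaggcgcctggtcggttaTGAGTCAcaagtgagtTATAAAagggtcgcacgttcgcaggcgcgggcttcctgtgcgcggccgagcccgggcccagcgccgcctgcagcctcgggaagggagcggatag
The capitals in the MIR3142HG window mark GGGACTTTC, the first 9 bases of a classical NF-κB site, at -120 to -112 from the RefSeq start; 0.387% of the 35116 RefSeq promoters hold it on either strand. The capitals in the MIR155HG window mark the AP-1 consensus TGAGTCA at -60 to -54, which 4.95% of promoters hold, and the TATA box TATAAA at -44 to -39, which 11.5% hold. The AP-1 consensus also lay in the MIR4435-2HG window, at 40 to 46 after the start, and the TATA box in the MALAT1 window at -30 to -25. The interferon core GAAANNGAA, held by 8.11% of promoters, lay in the MIR3142HG window at -85 to -77 and in the MIR155HG window at -213 to -205. The STAT pattern TTCNNNGAA, held by 7.66%, lay in the MIR155HG window at -125 to -117 and in the MIR4435-2HG window at -47 to -39. The E-box CACGTG and the CRE TGACGTCA, held by 7.26% and 1.85% of promoters, were not in the 6 windows. All were searched on both strands, and those found did not overlap each other within a window. A match in these letters is a description of the window and not a measured binding site.

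Levels are the authors' FPKM, in which the fragments of a gene are divided by its exon length and by the depth of the library. The length that fits the values is the total of all annotated exons. For MIR4435-2HG that is 13094 bases, against 3565 in its longest transcript. Levels of different genes are therefore per annotated base, and their order need not be that of RNA molecules. The deposited values implied 16974324 to 17875223 fragments per library in LPS+PD, 16218732 to 17666864 in LPS and 15641346 to 17615418 in control. Correlation across genes within a group was at least 0.989. Of 10 myeloid markers 9 entered the test, among them SPI1 at means of 219 FPKM in LPS+PD, 266 in LPS and 135 in control libraries; CD68 did not, at means of 0.216 FPKM in LPS+PD, 0.237 in LPS and 0.128 in control libraries. Differences were tested with limma on log2(FPKM + 1) over 13692 genes, and a call means a p below 0.05 after Benjamini-Hochberg adjustment over all of them. The 3 comparisons share libraries and are not independent of each other. Across all genes tested, 66.2% were called between LPS and control, 36.8% between LPS+PD and LPS and 54.7% between LPS+PD and control, so a call alone was common. In bulk RNA, fewer cells that express a gene and less of its RNA per cell cannot be told apart.

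Of the 7 genes, 6 were called between LPS and control, with 4 higher in LPS and 2 lower, where 26.4% of all genes were called higher and 39.7% lower. MIR155HG, MIR3142HG, MIR22HG and MIR4435-2HG were higher with LPS and MIR17HG and MALAT1 were lower. MIR3142HG passed the filter on low values only through libraries given LPS, and MIR22HG only through the LPS libraries. Their higher values there were thus built into their entry, and both genes are part of the counts and medians in this paragraph. Without control replicate 3 the count of 6 fell to 3, as MIR17HG, MIR4435-2HG and MALAT1 then missed the threshold. Between LPS+PD and LPS, 4 of the 7 were called, with MALAT1 higher and MIR155HG, MIR3142HG and MIR22HG lower with PD; 23.8% of all genes were called higher and 13% lower. Between LPS+PD and control, 5 of the 7 were called, with 4 higher and MIR17HG lower, against 26% and 28.7% of all genes. The 2 groups' libraries did not overlap for 5 of the 7 genes between LPS and control (69.8% of all genes), for 4 between LPS+PD and LPS (50.4%) and for 6 between LPS+PD and control (61.6%). The median log2 difference of the 7 was 0.29, -0.10 and 0.34 in the 3 comparisons in that order, beside -0.08, 0.07 and -0.02 over all genes tested. Scaling the libraries by median of ratios in place of the deposited scale moved the median of all genes for LPS against control by more than 0.1, to 0.02. On that scale 4814 genes were called higher and 4122 lower between LPS and control, against 3621 and 5438 as deposited. Likewise 1929 were called higher and 2582 lower between LPS+PD and LPS (3259 and 1778 as deposited), and 4099 higher and 3402 lower between LPS+PD and control (3556 and 3933). Small differences are therefore given below with their value on that scale where it ended a call.

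**Figure D1:**
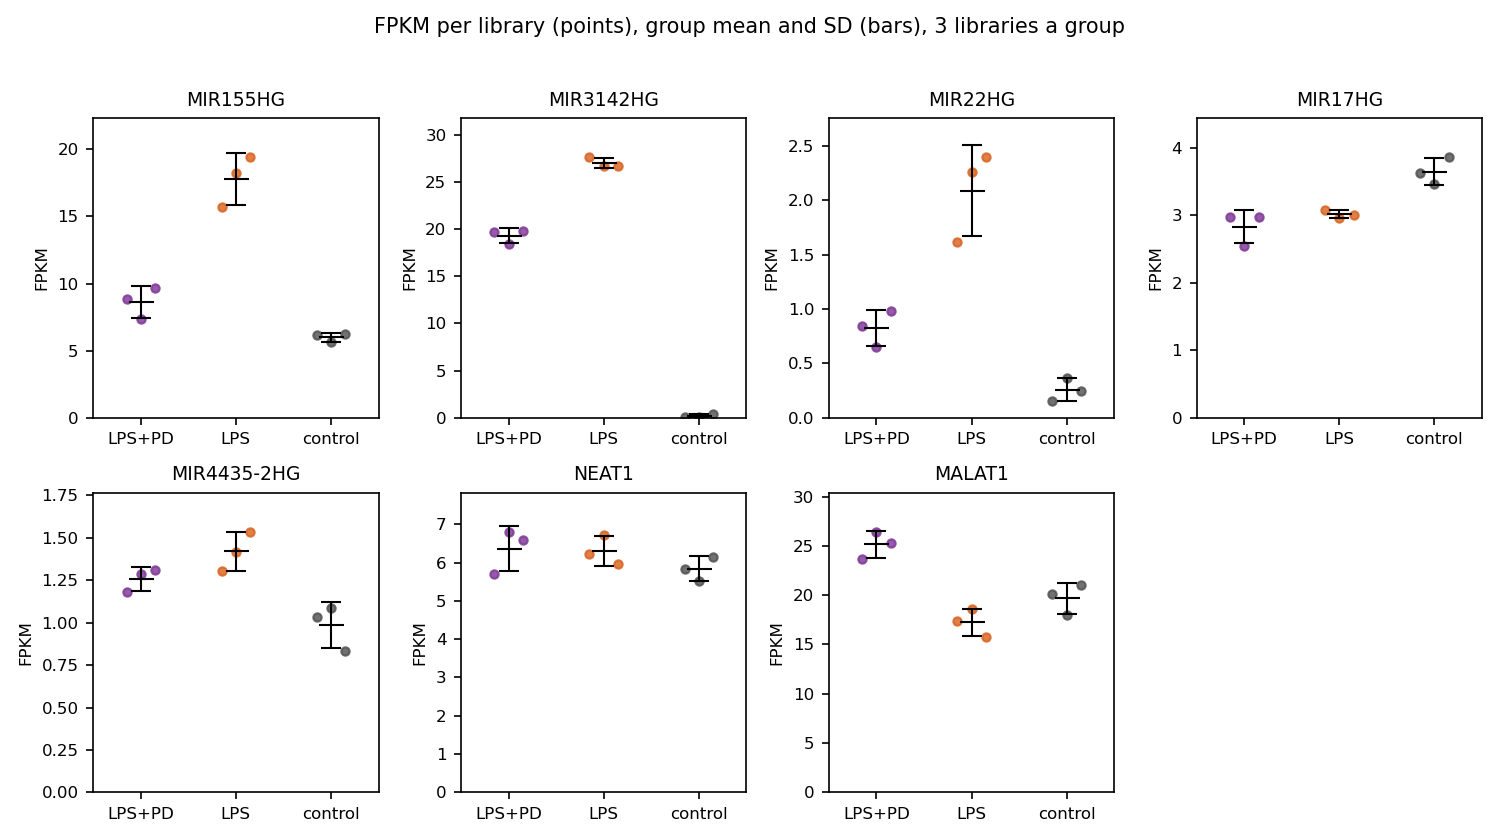
FPKM (vertical axis, linear from 0, a separate scale for each gene) of the 7 genes in each of 9 libraries, by treatment. Points are libraries and bars the mean and SD of 3; MIR155HG, MIR3142HG and MIR22HG lie highest in LPS, between LPS and control in LPS+PD and lowest in control, while MALAT1 lies highest in LPS+PD.

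MIR155HG, the host of miR-155, measured 8.88, 7.36 and 9.65 FPKM in LPS+PD libraries, 15.7, 18.3 and 19.4 FPKM in LPS libraries and 6.14, 5.63 and 6.22 FPKM in control libraries. All LPS libraries lay above all others, and all LPS+PD libraries lay above all control libraries. The LPS mean was 2.97 times the control mean, a log2(FPKM + 1) difference of 1.42 (SE 0.10, limma adjusted p = 1.02e-06). With PD the level was 2.06-fold lower than with LPS alone, a difference of -0.97 (SE 0.10, limma adjusted p = 6.72e-05). LPS+PD was still above control by 0.45 (SE 0.10, limma adjusted p = 0.00332). These 3 calls held under all 18 alternatives. On the FPKM scale 77.7% of the difference between the LPS and control means was absent with PD. The values rest on 200 to 275 fragments per LPS+PD library, 443 to 504 per LPS library and 141 to 173 per control library.

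MIR3142HG, the host of miR-146a and miR-3142, was near the floor in control cells and the highest of the 7 genes per length in LPS cells. It measured 19.7, 18.4 and 19.7 FPKM in LPS+PD libraries, 27.6, 26.7 and 26.7 FPKM in LPS libraries and 0.119, 0.108 and 0.366 FPKM in control libraries. No groups overlapped. The control values stand for 5, 4 and 14 fragments, against 743 to 838 in LPS+PD libraries and 1029 to 1159 in LPS libraries. The LPS mean was 136 times the control mean, or 238 times without control replicate 3, which holds most of the control fragments. The log2(FPKM + 1) difference was 4.55 (SE 0.08, limma adjusted p = 6.44e-11). The gene passed the filter on low values through the 6 libraries given LPS, so a difference from control was built into its entry. LPS+PD was above control by 4.09 (SE 0.08, limma adjusted p = 2.50e-10). The difference between LPS+PD and LPS was -0.46 (SE 0.08, limma adjusted p = 0.00131), and 28.7% of the difference between the LPS and control means was absent with PD. That call was lost with a pseudocount of 0.1 in place of 1 (difference -0.48, limma adjusted p = 0.172), for which the cause was not tested, and held under the other 17 alternatives.

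The hosts of miR-155 and miR-146a can be set against each other inside a library. The ratio of MIR155HG to MIR3142HG within a library was 0.450, 0.400 and 0.489 in LPS+PD libraries and 0.568, 0.685 and 0.728 in LPS libraries. The groups did not overlap, and the two-sided exact permutation test gave p = 0.1, the smallest that 3 against 3 libraries allow. In control libraries the ratio was 51.4, 52.4 and 17.0, which rests on the few MIR3142HG fragments there. A ratio within a library does not depend on the scaling between libraries.

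MIR22HG, the host of miR-22, was a low gene throughout. It measured 0.843, 0.651 and 0.977 FPKM in LPS+PD libraries, 1.61, 2.26 and 2.40 FPKM in LPS libraries and 0.152, 0.364 and 0.250 FPKM in control libraries. The groups did not overlap in any of the 3 comparisons. The LPS mean was 8.18 times the control mean, a log2(FPKM + 1) difference of 1.29 (SE 0.13, limma adjusted p = 1.45e-05). Only the 3 LPS libraries reached 1 FPKM, so the gene entered the test through the group in which it is high, and it dropped out of the test when any LPS library was left out. With PD the level was 2.53-fold lower than with LPS alone, a difference of -0.75 (SE 0.13, limma adjusted p = 0.00162), and 69.0% of the difference between the LPS and control means was absent. LPS+PD was above control by 0.54 (SE 0.13, limma adjusted p = 0.00588); this call was lost with quantile normalization (0.34, limma adjusted p = 0.0615). The values rest on 33 to 52 fragments in LPS+PD, 85 to 116 in LPS and 8 to 17 in control libraries. Part of the gene lies opposite the protein-coding gene WDR81, and the sources used here do not say whether strand was used in counting.

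MIR17HG, the host of the growth-associated miR-17-92 cluster and a known target of MYC, went the other way. It measured 2.98, 2.55 and 2.97 FPKM in LPS+PD libraries, 3.08, 2.97 and 3.00 FPKM in LPS libraries and 3.63, 3.46 and 3.87 FPKM in control libraries. Every library given LPS lay below every control library, while LPS+PD and LPS overlapped. LPS was below control by a log2(FPKM + 1) difference of -0.21 (SE 0.06, limma adjusted p = 0.0134). That call was lost with median-of-ratios scaling (-0.11, limma adjusted p = 0.140), with quantile normalization (-0.14, limma adjusted p = 0.0728) and without control replicate 3 (-0.18, limma adjusted p = 0.0533). LPS+PD was below control by -0.28 (SE 0.06, limma adjusted p = 0.00393), a call that held under all 17 alternatives in which the gene was tested. Between LPS+PD and LPS the difference was -0.07 with a 95% interval of -0.21 to 0.07 (limma adjusted p = 0.421).

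MIR4435-2HG, whose counterpart in mouse, Morrbid, regulates the survival of myeloid cells, was higher with LPS. It measured 1.18, 1.29 and 1.31 FPKM in LPS+PD libraries, 1.31, 1.42 and 1.54 FPKM in LPS libraries and 1.04, 1.09 and 0.831 FPKM in control libraries. The libraries given LPS lay above those of control, and LPS+PD and LPS overlapped at their edge. LPS was above control by a log2(FPKM + 1) difference of 0.29 (SE 0.08, limma adjusted p = 0.0127), which was lost without control replicate 3 (0.23, limma adjusted p = 0.0561). The difference between LPS+PD and LPS was -0.10 with a 95% interval of -0.29 to 0.09 (limma adjusted p = 0.392). LPS+PD stood above control by 0.19 (limma adjusted p = 0.0828), which did not pass; it passed with no intensity trend (limma adjusted p = 0.0285), with limma voom on recovered fragments (0.36, limma adjusted p = 0.00675) and among protein-coding genes and the 7 alone (limma adjusted p = 0.0346).

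The level of MIR4435-2HG is less certain than the others because the gene has a near-identical copy, CYTOR, on the same chromosome (chr2:87454781-87636740, plus strand), and the sources used here do not say how reads that match both were counted. CYTOR, named here for that reason after its values were seen, averaged 0.901 FPKM in LPS+PD, 1.11 FPKM in LPS and 0.703 FPKM in control libraries. Only its LPS libraries reached 1 FPKM, so it entered the test through the group in which it is high. It differed by 0.31 between LPS and control (SE 0.08, limma adjusted p = 0.00719). The difference between LPS+PD and LPS was -0.15 (limma adjusted p = 0.173), which passed in 3 of 13 alternatives, with quantile normalization (limma adjusted p = 0.0333), no intensity trend (0.0237) and voom (0.00724). MIR4435-2HG also spans BCL2L11 on the opposite strand, which encodes the death-promoting protein BIM. BCL2L11, likewise named after its values were seen, averaged 8.41 ± 0.57 FPKM in LPS+PD, 6.26 ± 0.47 FPKM in LPS and 9.89 ± 0.01 FPKM in control libraries (SD, n = 3 each). Its log2(FPKM + 1) difference was -0.59 between LPS and control (limma adjusted p = 1.41e-05) and 0.37 between LPS+PD and LPS (limma adjusted p = 9.41e-04). Between LPS+PD and control it was -0.21 (limma adjusted p = 0.0115). A link between BCL2L11 and MIR4435-2HG was not tested.

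NEAT1, the paraspeckle scaffold, passed the test in none of the 3 comparisons on the deposited scale. It measured 5.69, 6.80 and 6.59 FPKM in LPS+PD libraries, 6.23, 6.73 and 5.97 FPKM in LPS libraries and 5.84, 5.51 and 6.15 FPKM in control libraries, and all 3 groups overlapped. LPS stood above control by 0.10 on the log2(FPKM + 1) scale with a 95% interval of -0.06 to 0.25 (limma adjusted p = 0.243). The difference between LPS+PD and LPS was 0.01 with an interval of -0.15 to 0.16 (limma adjusted p = 0.942), and its sign turned under both other scalings. With median-of-ratios scaling LPS passed the threshold against control (0.21, limma adjusted p = 0.0158), and without LPS+PD replicate 7 LPS+PD did (0.17, limma adjusted p = 0.0479). NEAT1 had 2315 to 2672 fragments per LPS+PD library, 2203 to 2506 per LPS library and 1963 to 2343 per control library. Its level is 1 value for 8 annotated transcripts of 512 to 22743 bases, which does not resolve the short from the long form.

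MALAT1, the speckle RNA, was the only one of the 7 called higher with PD than with LPS alone. It measured 23.7, 26.4 and 25.3 FPKM in LPS+PD libraries, 17.4, 18.6 and 15.8 FPKM in LPS libraries and 20.1, 18.0 and 21.0 FPKM in control libraries. All LPS+PD libraries lay above all others, and LPS and control overlapped. LPS+PD was 1.46 times LPS, a log2(FPKM + 1) difference of 0.52 (SE 0.07, limma adjusted p = 4.39e-04), and 1.28 times control, a difference of 0.34 (SE 0.07, limma adjusted p = 0.00294). Both calls held under all 18 alternatives. LPS was below control by -0.18 (SE 0.07, limma adjusted p = 0.0464), a call at the edge of the threshold that was lost in 10 of 18 alternatives. With median-of-ratios scaling that difference was -0.06 (limma adjusted p = 0.466). Leaving out control replicate 1 or 3, LPS replicate 4 or 6, or LPS+PD replicate 8 or 9 also ended the call, at limma adjusted p from 0.0513 to 0.160.

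Set against its neighbour NEAT1, MALAT1 took a different share in each group. The ratio of MALAT1 to NEAT1 within a library was 4.17, 3.88 and 3.84 in LPS+PD, 2.79, 2.76 and 2.65 in LPS and 3.44, 3.26 and 3.41 in control libraries. It averaged 3.97 ± 0.18 in LPS+PD, 2.73 ± 0.07 in LPS and 3.37 ± 0.10 in control (SD, n = 3 each), with no overlap between groups. Each of the 3 two-sided exact permutation tests gave p = 0.1, the smallest that 3 against 3 libraries allow. The part of the poly(A) enrichment step in either level was not tested.

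**Figure D2:**
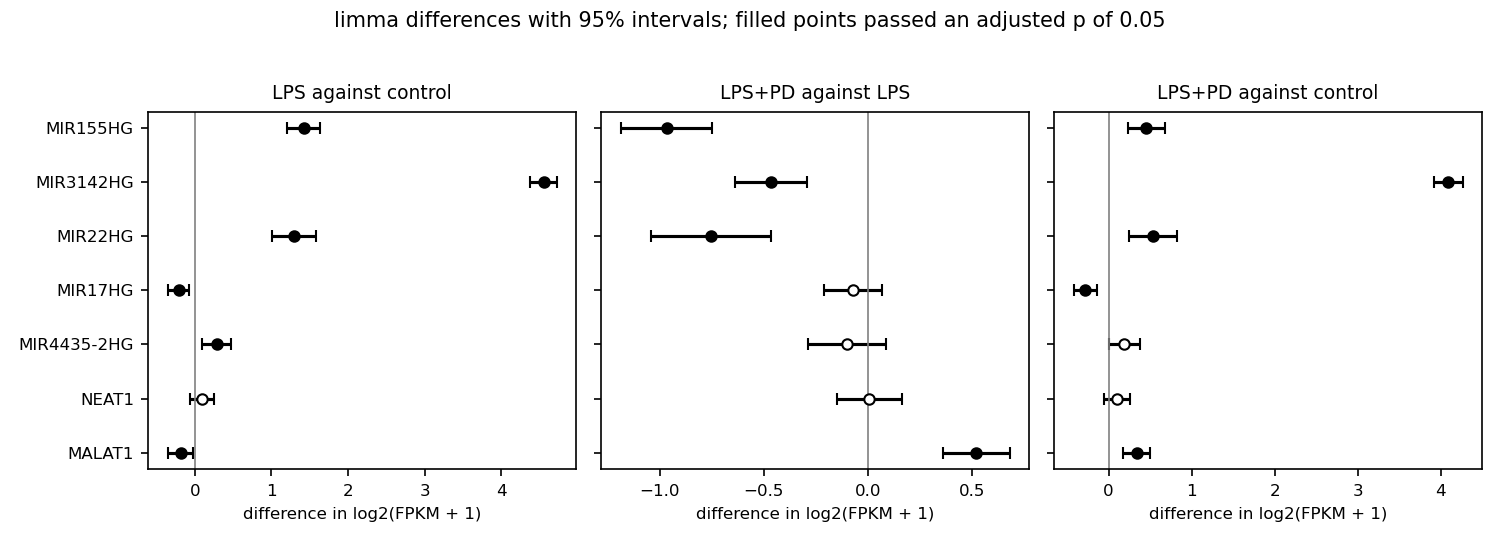
Differences in log2(FPKM + 1) of the 7 genes (horizontal axes, a separate range for each panel) in the 3 comparisons, with 95% intervals from limma; filled points passed an adjusted p of 0.05. On this scale MIR3142HG stands farthest from 0 in both comparisons with control, at 4.55 and 4.09, and MIR155HG in LPS+PD against LPS, at -0.97. By ratio of mean FPKM the fall with PD was larger for MIR22HG (2.53-fold) than for MIR155HG (2.06-fold).

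The order of the 7 genes by level per length changed with treatment. This order depends on the exon length used. NEAT1, at 22767 bases, had 2203 to 2506 fragments per LPS library, against 443 to 504 for MIR155HG at 1600 bases. In LPS+PD libraries MALAT1 led at a mean of 25.1 FPKM, followed by MIR3142HG at 19.3, MIR155HG at 8.63, NEAT1 at 6.36, MIR17HG at 2.83, MIR4435-2HG at 1.26 and MIR22HG at 0.824 FPKM. No neighbours in this order overlapped. In LPS libraries MIR3142HG led at 27.0 FPKM, followed by MIR155HG at 17.8, MALAT1 at 17.2, NEAT1 at 6.31, MIR17HG at 3.02, MIR22HG at 2.09 and MIR4435-2HG at 1.42 FPKM, and only MIR155HG and MALAT1 overlapped. In control libraries MALAT1 led at 19.7 FPKM, followed by MIR155HG at 6.00, NEAT1 at 5.84, MIR17HG at 3.65, MIR4435-2HG at 0.985, MIR22HG at 0.255 and MIR3142HG at 0.198 FPKM. There MIR155HG overlapped NEAT1, and MIR22HG overlapped MIR3142HG.

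Other microRNA host genes of the table, all symbols of the form MIR*HG outside the 7, numbered 37, and 7 of them entered the test. Between LPS and control 3 were called higher and 2 lower (26.4% and 39.7% of all genes). Between LPS+PD and LPS 2 were called in each direction (23.8% and 13% of all genes). Between LPS+PD and control 1 was called higher and 3 lower (26% and 28.7% of all genes). These counts moved with single libraries: the 5 calls between LPS and control fell to 3 without control replicate 1 or 2 or LPS replicate 5 or 6, and the 4 between LPS+PD and LPS fell to 2 without LPS replicate 6. The 4 between LPS+PD and control fell to 1 without control replicate 1 and to 2 without control replicate 2 or 3. With any of these libraries left out, 6 of the 7 stayed in the test. Their median log2 differences were -0.05, -0.06 and -0.29 in these comparisons, beside -0.08, 0.07 and -0.02 over all genes tested.

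The largest change among them was in MIR9-3HG, whose hairpin gives the neuronal miR-9. It measured 1.63, 1.90 and 1.84 FPKM in LPS+PD libraries, 0.989, 0.843 and 0.832 FPKM in LPS libraries and 6.68, 7.02 and 7.13 FPKM in control libraries, with no overlap. LPS was below control by -2.07 on the log2(FPKM + 1) scale (limma adjusted p = 3.05e-09), and LPS+PD above LPS by 0.56 (limma adjusted p = 1.31e-04). MIR600HG showed the same order, with means of 0.862 FPKM in LPS+PD, 0.515 FPKM in LPS and 2.11 FPKM in control libraries. Only its control libraries reached 1 FPKM, so it entered the test through the group in which it is high. It differed by -1.03 between LPS and control (limma adjusted p = 3.13e-06) and by 0.30 between LPS+PD and LPS (limma adjusted p = 0.0202), a call lost with quantile normalization (0.111) and without LPS replicate 6 (0.061) or LPS+PD replicate 9 (0.0627).

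MIR210HG, the host of the hypoxia-linked miR-210, averaged 0.739 FPKM in LPS+PD, 1.55 FPKM in LPS and 0.463 FPKM in control libraries. Only its LPS libraries reached 1 FPKM, and it too entered the test through its highest group. It was higher with LPS than in control by 0.78 (limma adjusted p = 9.13e-04) and lower with PD than with LPS by -0.54 (limma adjusted p = 0.0161), a call lost without LPS+PD replicate 9 (-0.48, limma adjusted p = 0.0521). MIR222HG, the host of miR-221 and miR-222, averaged 2.19 FPKM in LPS+PD, 2.83 FPKM in LPS and 1.50 FPKM in control libraries, and was higher in LPS than in control by 0.62 (limma adjusted p = 0.00112). It gave the 1 higher call between LPS+PD and control (0.34, limma adjusted p = 0.0316), lost in 6 of 16 alternatives, among them leaving out control replicate 1 or 2 or LPS+PD replicate 8 or 9 (0.0523 to 0.107). MIR503HG averaged 0.645 FPKM in LPS+PD, 1.42 FPKM in LPS and 1.01 FPKM in control libraries, and was lower with PD than with LPS by -0.55 (limma adjusted p = 0.00120). Its call between LPS and control (0.26, limma adjusted p = 0.0260) was lost in 6 of 16 alternatives, among them leaving out control replicate 1 or 2 or LPS replicate 5 or 6. Its call between LPS+PD and control (-0.29, limma adjusted p = 0.0208) was lost in 4 of 16, among them leaving out control replicate 1 or 3 or LPS+PD replicate 7. MIR4453HG and MIRLET7BHG passed in none of the 3 comparisons in the main test. Of the 16 alternatives that tested MIR4453HG, it passed in 1 between LPS and control and in 2 between LPS+PD and control. MIRLET7BHG passed in 2 of 16 between LPS+PD and LPS and in 1 of 16 between LPS+PD and control.

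**Figure D3:**
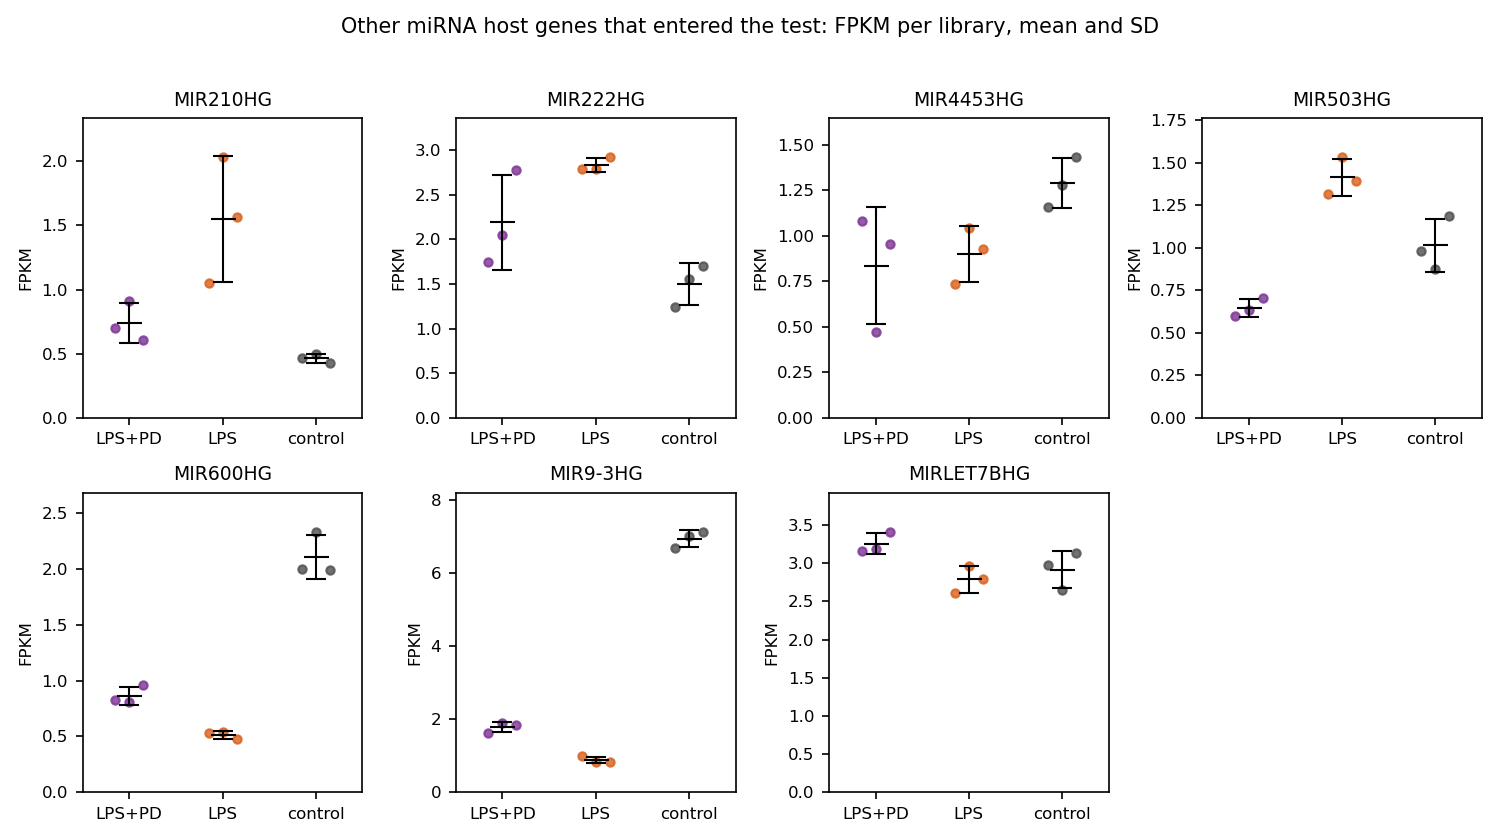
FPKM (vertical axis, linear from 0, a separate scale for each gene) of the other 7 microRNA host genes that entered the test, in 9 libraries by treatment; bars are the mean and SD of 3. MIR9-3HG and MIR600HG lie highest in control, and MIR210HG, MIR222HG and MIR503HG have their highest means in LPS.

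The messenger RNAs that the hosted microRNAs are reported to repress were called in both directions. Of 13 tested genes reported as miR-155 targets, 6 were called higher and 5 lower between LPS and control (26.4% and 39.7% of all genes). Between LPS+PD and LPS, 3 were called higher and 5 lower (23.8% and 13% of all genes). IKBKE, a kinase of interferon signalling, averaged 43.4 FPKM in LPS+PD, 57.4 FPKM in LPS and 11.1 FPKM in control libraries. JARID2, a partner of the Polycomb complex, ran the other way with means of 5.94, 5.23 and 11.1 FPKM in LPS+PD, LPS and control libraries. SOCS1, a brake on cytokine receptors, averaged 0.812 FPKM in LPS+PD, 3.78 FPKM in LPS and 0.903 FPKM in control libraries. It was lower with PD than with LPS by -1.38 (limma adjusted p = 3.94e-05). The median log2 difference of the 13 was 0.03 between LPS and control and -0.04 between LPS+PD and LPS. Over all genes tested it was -0.08 and 0.07.

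Of 8 tested miR-146a targets, 4 were called higher and 3 lower between LPS and control (26.4% and 39.7% of all genes). Between LPS+PD and LPS, 2 were called higher and 4 lower (23.8% and 13% of all genes). IRAK2, a kinase of the Toll-like receptor complex, averaged 3.22 FPKM in LPS+PD, 18.6 FPKM in LPS and 0.423 FPKM in control libraries. Its sister IRAK1, the best known target, averaged 65.1 FPKM in LPS+PD, 60.1 FPKM in LPS and 63.6 FPKM in control libraries. IRAK1 passed between LPS+PD and LPS (0.11, limma adjusted p = 0.0105) but not with median-of-ratios scaling (0.03, limma adjusted p = 0.491). Between LPS and control, where MIR3142HG differed by 4.55, IRAK1 was called lower (-0.08, limma adjusted p = 0.0278). The median over all genes tested there was also -0.08, and the IRAK1 value with median-of-ratios scaling is not reported here. Between LPS+PD and control, where MIR3142HG differed by 4.09, IRAK1 did not pass (0.03, limma adjusted p = 0.331).

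Of the 13 tested miR-17-92 targets, 8 were called higher and 5 lower between LPS and control (26.4% and 39.7% of all genes). Between LPS+PD and LPS, 5 were called higher and 6 lower (23.8% and 13% of all genes). The cell cycle inhibitor CDKN1A averaged 36.9 FPKM in LPS+PD, 95.5 FPKM in LPS and 13.7 FPKM in control libraries, and the phagocytosis checkpoint SIRPA averaged 41.3, 68.8 and 18.4 FPKM in the same order. BCL2L11, described above, is also among these targets and ran the other way, lower with LPS than in control and higher with PD than with LPS. Beside the same shares over all genes, 3 of 8 tested miR-22 targets were called higher and 5 lower between LPS and control. Between LPS+PD and LPS, 3 of the miR-22 targets were called higher and 2 lower. Among these HDAC4, a histone deacetylase, averaged 4.85 FPKM in LPS+PD, 3.94 FPKM in LPS and 7.02 FPKM in control libraries. With median-of-ratios scaling the split between LPS+PD and LPS shifted towards lower, as it did over all 13692 genes. Of these 1929 were then higher and 2582 lower, against 3259 and 1778 as deposited. The miR-155 targets gave 2 higher and 7 lower, and the miR-146a targets 5 lower. The miR-17-92 targets gave 3 higher and 8 lower, and the miR-22 targets 1 higher and 4 lower. The split between LPS and control became 7 higher and 3 lower for miR-155 and 3 higher and 3 lower for miR-22 targets. Over all genes it became 4814 higher and 4122 lower, against 3621 and 5438 as deposited. The mature strands themselves are not analysed here.

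The genes that make and load microRNAs were called in both directions as well. Of 19 tested, 6 were called higher and 5 lower between LPS and control (26.4% and 39.7% of all genes). With median-of-ratios scaling 10 were higher and 3 lower, beside 4814 and 4122 of all 13692 genes. The ribonuclease ZC3H12A, which also cuts microRNA precursors, averaged 42.1 FPKM in LPS+PD, 76.6 FPKM in LPS and 4.74 FPKM in control libraries. DDX5, a helicase of the DROSHA complex, averaged 101, 125 and 77.5 FPKM in LPS+PD, LPS and control libraries. XPO5, the exporter of hairpins, was higher in LPS than in control libraries (0.30, limma adjusted p = 2.78e-05), and the Argonaute AGO4 averaged 7.18 FPKM in LPS against 15.2 FPKM in control libraries (-0.99, limma adjusted p = 1.23e-06). Against LPS, LPS+PD had 5 called higher and 3 lower (23.8% and 13% of all genes). These counts became 2 higher and 6 lower with median-of-ratios scaling, beside 1929 and 2582 of all 13692 genes.

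Transcription factors reported at the promoters of these genes were mostly higher in LPS. Of 17 tested, 12 were called higher and 3 lower between LPS and control (26.4% and 39.7% of all genes). The median log2 difference was 0.85, beside -0.08 over all genes. Between LPS+PD and LPS, 9 were called lower and 5 higher (13% and 23.8% of all genes). The median there was -0.11, beside 0.07 over all genes. Under both other scalings 11 or 12 were higher between LPS and control. With median-of-ratios scaling 4814 of all 13692 genes were higher there. NFKB2, an NF-κB subunit, averaged 72.8 FPKM in LPS+PD, 105 FPKM in LPS and 7.88 FPKM in control libraries. NFKB1 averaged 30.0, 41.6 and 8.80 FPKM in LPS+PD, LPS and control libraries, and JUN, an AP-1 subunit, averaged 20.3, 26.1 and 3.23 FPKM in that order. The hypoxia factor EPAS1 was among the 3 called lower, at 3.64 FPKM in LPS against 14.3 FPKM in control libraries.

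Among the proteins that sit with NEAT1 in paraspeckles, 17 were tested. On the deposited scale 2 were called higher and 10 lower between LPS and control (26.4% and 39.7% of all genes). Between LPS+PD and LPS 9 were called higher (23.8% of all genes), with the other 8 not called. With median-of-ratios scaling these counts became 5 higher and 4 lower, and 3 higher and 2 lower, so that the direction of the group depended on the scaling. On that scale 4814 of all 13692 genes were higher and 4122 lower between LPS and control. Between LPS+PD and LPS 1929 were higher and 2582 lower. HNRNPA1 averaged 280 ± 6.1 FPKM in LPS+PD, 243 ± 0.86 FPKM in LPS and 348 ± 6.5 FPKM in control libraries (SD, n = 3 each). TAF15, an RNA-binding protein, was higher in LPS, at 30.8 FPKM against 23.3 FPKM in control libraries (0.39, limma adjusted p = 4.78e-06).

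Proteins of the nuclear speckle, where MALAT1 resides, gave 1 higher and 6 lower of 15 between LPS and control (26.4% and 39.7% of all genes). These counts turned to 8 higher and 1 lower with median-of-ratios scaling, where 4814 of all 13692 genes were higher and 4122 lower. Against LPS, LPS+PD had 4 of the 15 called higher (23.8% of all genes) and the other 11 not called. With median-of-ratios scaling 1 was called higher, beside 1929 of all 13692 genes. The splicing factor SRSF1 averaged 93.5 FPKM in LPS+PD, 83.1 FPKM in LPS and 92.1 FPKM in control libraries. Its difference between LPS+PD and LPS was 0.17 (limma adjusted p = 0.00268), beside 0.52 for MALAT1.

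**Figure D4:**
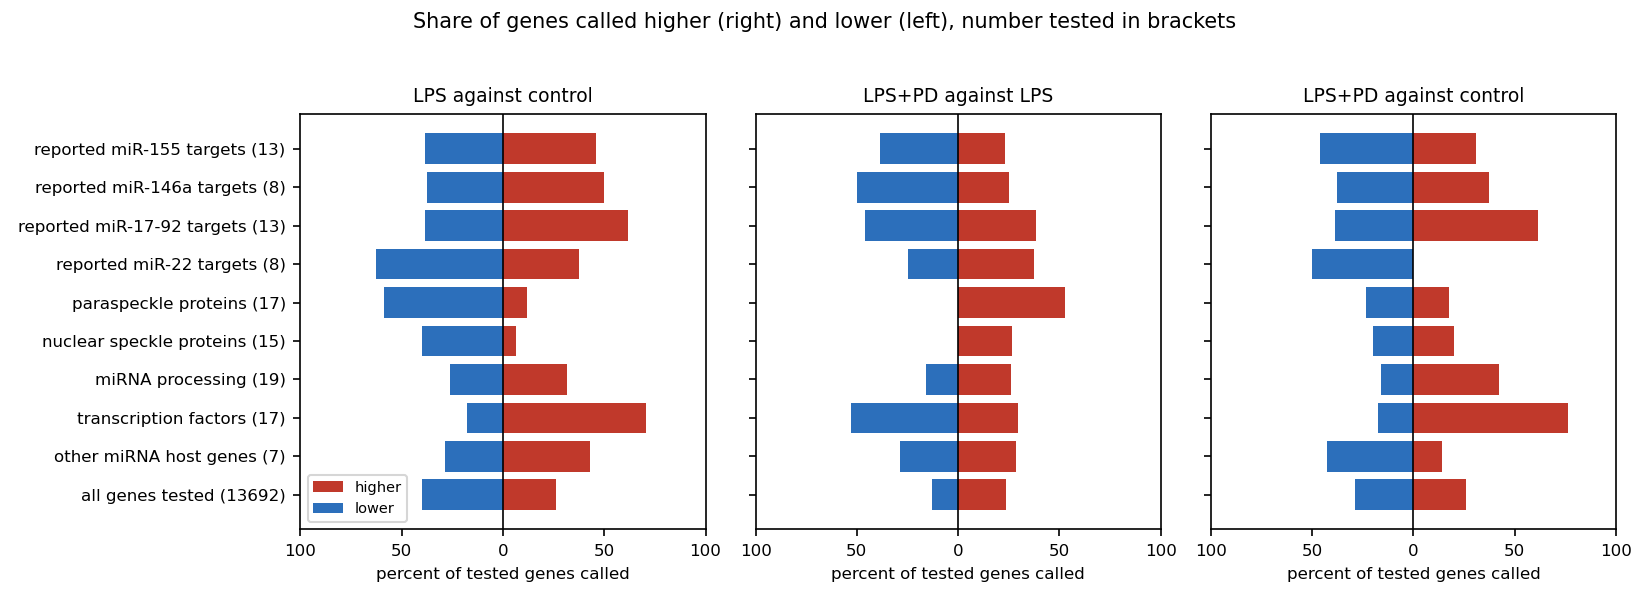
Percent of the tested genes of each group called higher (right of 0) and lower (left of 0) in the 3 comparisons on the deposited scale, with the number tested in brackets and all 13692 genes tested in the bottom row. Transcription factors show 12 of 17 higher between LPS and control, and paraspeckle proteins show 10 of 17 lower there and 9 of 17 higher between LPS+PD and LPS.

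The genes most like each of the 7 across the 9 libraries were taken by Pearson correlation of log2(FPKM + 1) over the 7657 tested genes with a group mean of at least 5 FPKM. These correlations are descriptions, since the 9 libraries fall into 3 treatment groups and share them. MIR155HG ran closest to LYRM1 (r = 0.995), PFKFB3 (r = 0.995) and PIM2 (r = 0.992), and 268 genes reached 0.95. For MIR3142HG 930 genes reached 0.95, led by RTN1, ADAMDEC1 and MT2A, and for MIR22HG 350 did, led by BCAR1, ANKRD45 and HES1. Few genes followed the others as closely, with 14 at 0.95 for MIR4435-2HG (led by XPNPEP1), 8 for MALAT1 (led by PPP5C, r = 0.976), 4 for MIR17HG (led by RPL39P3, r = 0.963) and 0 for NEAT1, whose closest gene was SMNDC1 (r = 0.918).

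Markers of other cells moved with some of these comparisons, and their part in the results was not tested. The summed level of 10 myeloid markers was 745 to 762 FPKM in LPS+PD, 691 to 704 FPKM in LPS and 522 to 554 FPKM in control libraries. Its members went opposite ways. Of the 9 tested, 5 were called higher and 3 lower between LPS and control (26.4% and 39.7% of all genes). Between LPS+PD and LPS, 3 were called higher and 4 lower (23.8% and 13% of all genes). LYZ averaged 301 FPKM in LPS+PD, 158 FPKM in LPS and 169 FPKM in control libraries, while CD14 averaged 10.1, 35.1 and 0.466 FPKM in the same order. The 8 epithelial markers summed to 2.71 to 3.10 FPKM in LPS+PD, 5.20 to 6.93 FPKM in LPS and 2.85 to 2.98 FPKM in control libraries, and 1 of them, MUC1, entered the test; EPCAM and KRT18 were listed at 0 in all libraries given LPS. The 5 lymphocyte markers in the table summed to 20.8 to 23.7, 30.5 to 32.3 and 16.6 to 23.0 FPKM in LPS+PD, LPS and control libraries, nearly all of it NKG7, and CD3E was listed at 0 in all libraries given LPS. The 5 fibroblast and endothelial markers summed to 47.3 to 48.1, 54.1 to 56.6 and 34.4 to 35.5 FPKM in the same order, nearly all of it PECAM1, which monocytes also express.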

How the data were processed

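The measurements are 9 libraries of poly(A)-enriched THP-1 RNA, grouped by the treatment in their titles. The authors deposited 1 table of FPKM for 34643 genes; per the submitters' processing notes the tools were bcl2fastq, FastQC, HISAT2 and StringTie and the build was GRCh38. Their versions, the use of strand and the treatment of reads matching several genes were not given in the sources used here. Reads of overlapping or near-identical genes may therefore be split wrongly. Multiplying the deposited FPKM by GENCODE v29 exon length gave whole fragments, within a tolerance of 0.05, for 97.6 to 97.7% of values, and so the depth. Every pair of replicates differed beyond sampling noise.

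Differences were computed on log2(FPKM + 1) with limma (version 3.58.1, R 4.3.3), with an intensity trend and 3 group means, over 13692 genes with FPKM of at least 1 in at least 3 libraries. Summaries used Python 3.11.15. The test was also run on simulated data with few changed genes and no shift in scale between groups. That setting does not cover the wide changes and the dependence on scaling seen here. The 7 genes and the gene lists were chosen with earlier results of these data known, and the lists are reported targets, complexes and regulators from textbook knowledge. Named genes are the 7, all other tested MIR*HG genes, up to 4 called genes of smallest p per list and comparison, and the 3 most correlated genes; further genes, and the markers named that did not enter the test, were chosen after their values were seen. Some genes that this rule takes are not reported here. Alternatives covered the pseudocount, filter, scaling, libraries fitted, trend and each library left out; 2 (voom on recovered fragments, protein-coding genes only) were chosen after seeing the data.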

Additional observations from a re-analysis of the deposited data

How the results depend on the processing

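No paired analysis was possible because the replicate numbers, 1 to 9, are not shared between groups. Over 18 alternatives (9 of them each leaving out 1 library), 334 of 360 values of the 7 genes kept their direction and side of the threshold, 16 lost a call, 5 gained one and 5 turned sign. All 5 were NEAT1 between LPS+PD and LPS, at -0.065 with median-of-ratios scaling, -0.020 with quantile normalization and -0.026, -0.036 and -0.016 without LPS replicate 6, LPS+PD replicate 8 or LPS+PD replicate 9, none of them called; over all 9 libraries left out in turn the value ran from -0.036 to 0.075. MIRLET7BHG between LPS and control turned to 0.052 and 0.041 under these scalings, and MIR4453HG between LPS+PD and LPS ranged from -0.16 to 0.089 with 1 library left out. Of the other named genes, 2394 of 2456 values were unchanged in this sense.

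A filter at 5 FPKM left 7807 genes and removed MIR22HG, MIR17HG and MIR4435-2HG; 5929 genes were then called between LPS and control, and 3 of the 7 in each comparison with control. With 1 library left out, 8157 to 8986, 4095 to 5081 and 6503 to 7366 genes were called in the 3 comparisons, and 3 to 6, 3 to 4 and 4 to 6 of the 7; the 3 between LPS and control arose without control replicate 3. Depth limits MIR22HG and, in control, MIR3142HG; intervals here cover the spread between libraries only.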
